A study of Mus musculus with 216 samples.

Results

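The skeletal muscle of young mice was compared with 5 other organs of mice of the same age. The muscle group is the 12 libraries labelled young and muscle, 1 for each circadian time from 18 to 62 in steps of 4 h, out of 216 libraries in the series. They were set against the 60 young libraries of adrenal gland, heart, hypothalamus, kidney and lung, 12 from each organ at the same 12 times. All mice were male, of the C57B6/J-NIA strain and 6 months old, and no group carried a treatment or an engineered allele. The study asked how the circadian transcriptome changes with age, so the other ages were 18 and 27 months. Each library pooled 2 samples, RNA was extracted with Trizol, and poly(A) RNA was sequenced. Which muscle was taken is not given in the sources used here, and beyond the pooling nothing says whether libraries came from separate animals. The p-values below therefore measure the spread between these libraries only. Levels are CPM, the count of a gene scaled to the total count of its library, and differences are log2 differences with their standard errors from the quasi-likelihood test of edgeR. Adjusted p-values are by Benjamini-Hochberg over all 20682 genes tested and the threshold is 0.05.

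The tissue label was checked against 2 defining transcripts. Myh4, the heavy chain of type IIb fast myosin, had a lowest, median and highest level of 19397, 25575 and 29731 CPM in muscle. Acta1, the actin of skeletal muscle thin filaments, had 7709, 9065 and 9641 CPM. The highest of the 60 other libraries had 854 CPM of Myh4 and 564 CPM of Acta1, so the libraries of muscle stood above all others without overlap for both genes.

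Skeletal muscle fibres contract when a nerve impulse, passed on at the neuromuscular junction, opens calcium channels of the membrane and of the sarcoplasmic reticulum, and calcium then frees actin for myosin through the troponins. Fast fibres use one set of myosin, troponin and calcium pump genes and live largely on glycogen and creatine phosphate, and slow fibres use another set that overlaps with that of the heart. The identity of the fibres rests on myogenic transcription factors, which bind E-boxes (CANNTG) and act together with MEF2 and SRF, the latter binding CArG boxes.

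Total counts of the muscle libraries ran from 15239373 to 27623643, with a median of 18865398, and young libraries of the other organs ran from 9438150 (heart) to 29416159 (hypothalamus). A few genes held much of the muscle total, the top 10 having 10.8 ± 0.612% and the top 50 25.3 ± 0.974% (SD, n = 12). The TMM factors that correct for this had a median of 0.69 in muscle, 0.84 in heart and up to 1.29 in lung. The adrenal library at time 54 stood apart, with summed adrenal markers of 675 CPM against a median of 14638. Without it 431 genes in place of 422 met the rule for high in muscle that is given below, and 316 in place of 307 met that for low.

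Transcripts of other organs were found in some groups. All 7 lung markers were detected in muscle, where their summed level ran from 80.0 to 333 CPM. The sum ran from 12201 to 16031 CPM in lung and was at most 5.76 CPM in the other 4 organs. Sftpc, surfactant protein C of alveolar cells, had 25.95 to 116 CPM in muscle, and Scgb1a1, a secretory protein of the airways, had 37.3 to 136 CPM. In the other direction the 13 fast fibre genes summed to 242 to 3257 CPM in adrenal and 557 to 1689 CPM in lung. They summed to 96.3 to 172 CPM in kidney, but there Tpm1 alone had 86.3 to 156 CPM and Myh4 at most 0.136 CPM. The sum in kidney was thus mostly Tpm1, which is also part of the sums in adrenal and lung. Myh4 reached 854 CPM in the adrenal library at 46 and 682 CPM in that at 18, and 60.03 to 402 CPM in lung, while no heart library exceeded 0.368 CPM. The differences of muscle genes from adrenal and lung given below move with these levels, and the part of carried-over RNA in them was not tested. In bulk tissue, fewer cells of a type and less RNA per cell cannot be told apart.

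**Figure D1:**
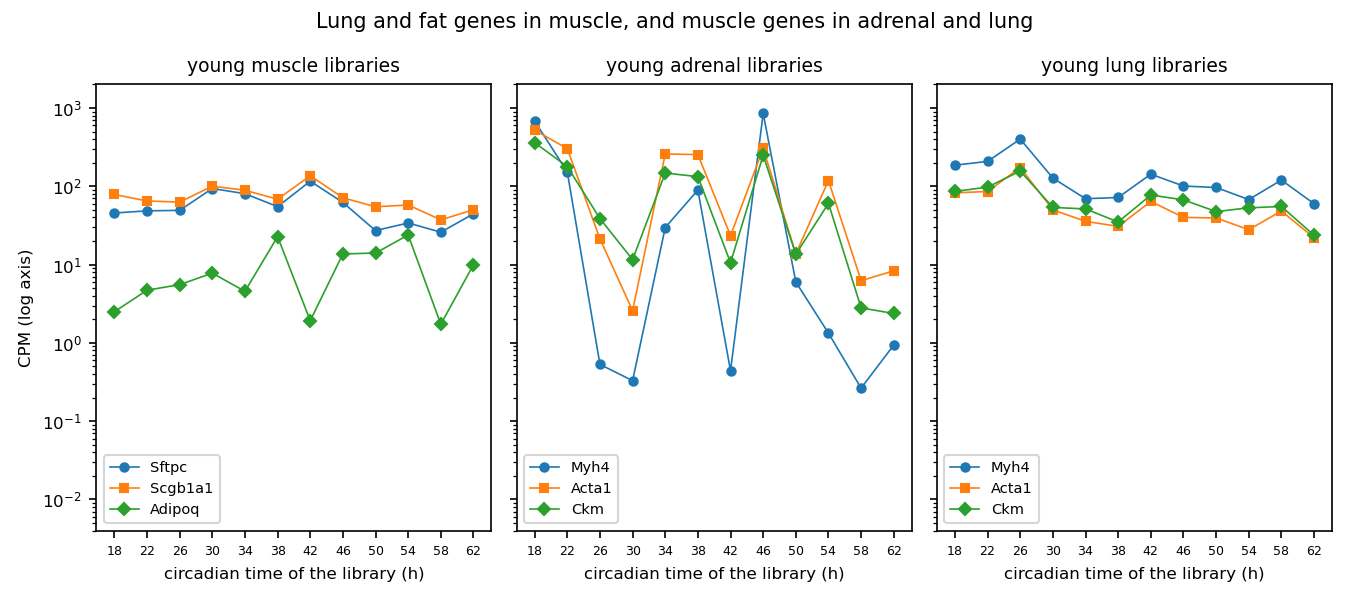
Levels (CPM, log axis) of 3 genes in each of the 12 young libraries of muscle, adrenal and lung, against circadian time in hours; lines only join the points of a gene. Sftpc and Scgb1a1 lie between 25.95 and 136 CPM in muscle, Myh4 in adrenal ranges from 0.264 to 854 CPM, and Myh4 in lung stays between 60.03 and 402 CPM.

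The 200 bases before the start site of 5 genes high in muscle are shown first, because these genes mark the contractile apparatus, the calcium store and the junction with the nerve. Sequences are from RefSeq (build GRCm38.p6), 5′ to 3′ on the strand of the gene, and end at the base before the RefSeq start site. For Myh4 that site (67237812) lies upstream of the start of the GENCODE gene (67238029), and for Acta1, Casq1 and Mylpf the starts also differ. Capitals mark E-boxes (CANNTG) and CArG boxes. The windows are chr11:67237612-67237811 (plus strand) for Myh4, chr8:123894776-123894975 (minus strand) for Acta1, chr7:127211408-127211607 (plus strand) for Mylpf, chr1:172219896-172220095 (minus strand) for Casq1 and chr2:73580339-73580538 (minus strand) for Chrna1, and none overlaps an annotated exon. That of Mylpf lies within the span of the gene, between exons of a longer transcript.
Myh4: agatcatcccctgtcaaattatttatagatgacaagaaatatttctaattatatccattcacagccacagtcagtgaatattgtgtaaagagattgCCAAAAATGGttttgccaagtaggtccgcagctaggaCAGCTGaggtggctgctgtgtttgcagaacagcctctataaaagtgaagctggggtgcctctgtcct
Acta1: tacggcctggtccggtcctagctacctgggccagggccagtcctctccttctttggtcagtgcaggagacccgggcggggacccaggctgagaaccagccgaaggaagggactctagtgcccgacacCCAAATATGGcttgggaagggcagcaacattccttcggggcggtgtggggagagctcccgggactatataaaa
Mylpf: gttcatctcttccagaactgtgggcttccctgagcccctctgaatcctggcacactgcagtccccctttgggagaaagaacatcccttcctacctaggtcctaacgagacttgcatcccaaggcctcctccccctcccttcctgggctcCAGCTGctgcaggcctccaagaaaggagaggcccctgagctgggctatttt
Casq1: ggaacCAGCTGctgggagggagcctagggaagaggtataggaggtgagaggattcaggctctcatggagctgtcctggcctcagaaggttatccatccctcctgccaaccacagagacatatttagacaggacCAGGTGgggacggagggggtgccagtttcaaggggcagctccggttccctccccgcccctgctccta
Chrna1: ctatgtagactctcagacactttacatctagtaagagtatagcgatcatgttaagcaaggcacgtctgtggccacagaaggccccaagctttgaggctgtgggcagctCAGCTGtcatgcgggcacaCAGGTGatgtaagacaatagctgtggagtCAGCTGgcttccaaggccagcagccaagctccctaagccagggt

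Counted from the start site, Acta1 had 1 CArG box at -73 to -64 and Myh4 had 1 at -104 to -95. Myh4 and Mylpf (the fast regulatory light chain) each had 1 E-box of the form CAGCTG, at -67 to -62 and -51 to -46. Casq1, the calcium-binding protein of the sarcoplasmic reticulum, had 2 E-boxes and Chrna1, a subunit of the acetylcholine receptor, had 3 between -92 and -39. Motifs were searched on both strands in the 250 bases before the start, where 283 of the 422 muscle-high genes defined below had a RefSeq window. CAGCTG was in 23.4% of their 359 windows and in 13.1% of the 17939 windows of genes tested. The MEF2 box was in 3.06% against 0.502%, the CArG box in 2.51% against 1.20%, and any CANNTG, which includes CAGCTG, in 68.8% against 60.4%. In the 268 windows of muscle-low genes, CAGCTG was in 19.4%, the MEF2 box in 1.12%, the CArG box in none, and any CANNTG in 61.2%, and over all 32851 RefSeq windows CANNTG was in 66.2%. These shares are a description with no test, and a match shows letters only, not a bound site.

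Against the mean of the 5 other organs, 7440 genes were higher in muscle (36.0% of those tested) and 9516 lower (46%). The median difference over all genes was -0.37. Adrenal, hypothalamus, kidney and lung taken singly had 35.6, 38.4, 38.7 and 36.3% of genes higher in muscle and 50.7, 48.7, 44.1 and 49.0% lower. With library totals alone as scaling the median against the mean was -1.02, and 25.1% of the genes called were higher in place of 43.9%. A gene was called muscle-high when it was higher than each of the 5 organs past the threshold and the smallest of the 5 differences was at least 2, that is 4-fold. This held for 422 genes (2.04%), and the mirror rule for muscle-low held for 307 (1.48%). With library totals as scaling the counts were 292 and 563, so which set was the larger turned around, and fits of muscle with 1 organ at a time gave 409 and 103. On CPM, which leave out the TMM factors, all 12 muscle libraries lay above all 60 others for 893 genes (4.32%), among them 381 of the 422. The annotation lists 288 of the 422 as protein coding and 128 under another biotype. In 175 of the 422 the organ that came closest to muscle was the heart, followed by hypothalamus (84), adrenal (75), lung (61) and kidney (27). At the boundary, Mn1 with a smallest difference of 2.0004 and the glycogen gene Ugp2 with 2.02 lay just inside, and Opn1mw with 1.9996 and Foxo4 with 1.99 just outside.

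The heart set apart a second tier of genes. At least 4-fold above adrenal, hypothalamus, kidney and lung were 886 genes, of which 422 were also at least 4-fold above heart. Another 438 were within 4-fold of the heart or not called against it, and 26 were at least 4-fold lower than in heart. At any size of difference, 766 of the 886 were higher than heart past the threshold and 68 lower. Against heart alone 7437 genes were higher (36.0%) and 7511 lower (36.3%), with a median of 0, so that 49.8% of the genes called were higher. With library totals as scaling the share was 36.3% and the median -0.27.

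**Figure D2:**
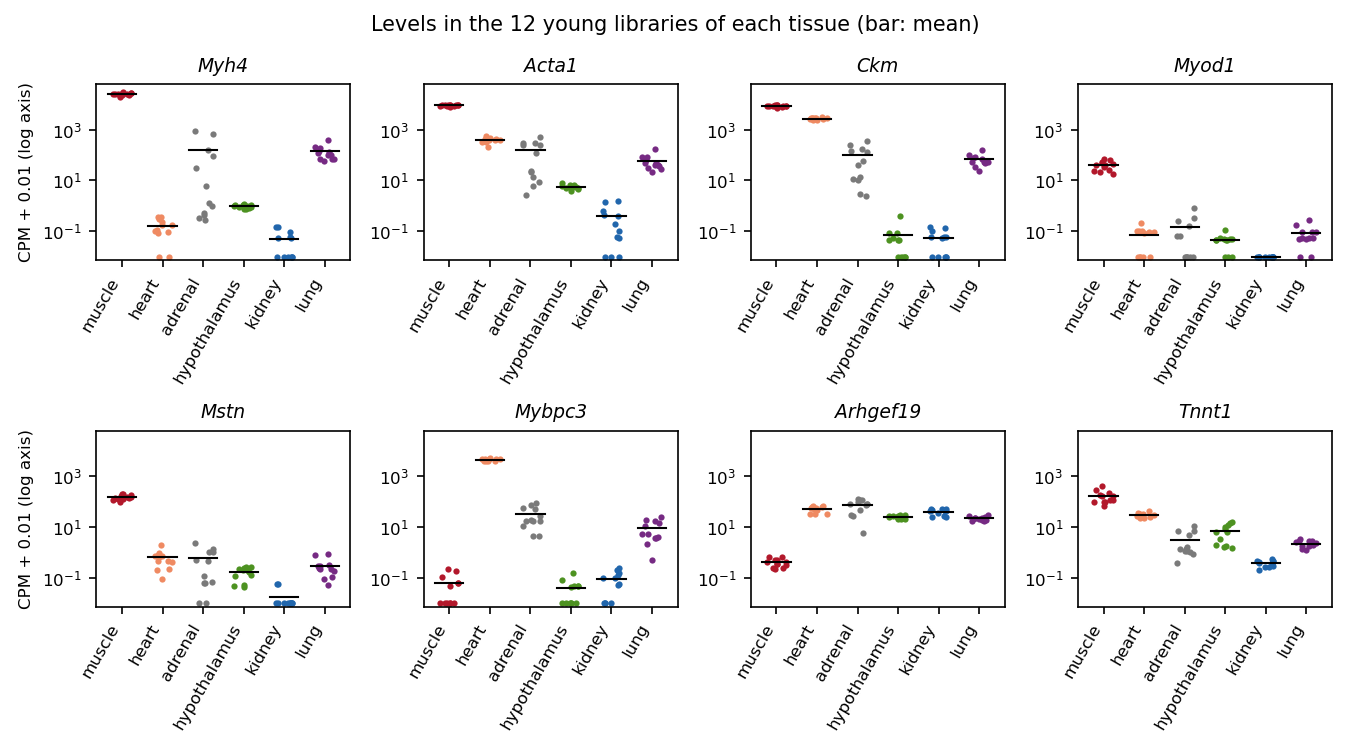
CPM plus 0.01 (log axis) of 8 genes in the 72 young libraries, 12 points per organ, with a bar at the mean. Muscle points lie above all others for Myh4, Acta1, Ckm, Myod1, Mstn and Tnnt1, heart points lie above all others for Mybpc3, and muscle points lie below all others for Arhgef19.

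The contractile genes of fast fibres gave the clearest pattern. All 13 were higher than the mean of the other organs, 12 were muscle-high, and in those 12 the muscle libraries did not overlap any other library. The median over the list of the smallest difference was 7.97, where the median over all genes tested was -1.61. Myh4 was 8.54 ± 0.66 (log2) above lung, the nearest organ (adjusted p = 2.75e-18), and 17.55 ± 0.95, adjusted p = 1.32e-24 above heart. Myh1 and Myh2, the heavy chains of types IIx and IIa, had 2889.6, 4114 and 6361 CPM and 1737, 3349 and 4470.1 CPM as lowest, median and highest level and were nearest to adrenal, at 7.31 ± 0.68 and 7.25 ± 0.79. The fast troponins Tnnt3, Tnni2 and Tnnc2 were nearest to lung, at 7.97 ± 0.63, 8.18 ± 0.57 and 8.01 ± 0.61, and Mylpf at 8.02 ± 0.49. Acta1 was nearest to heart, at 4.83 ± 0.47 (adjusted p = 7.21e-14). Actn3, the actinin of fast fibre Z-discs, was 9.29 ± 0.45 above lung and Mybpc2, the fast myosin-binding protein C, 8.68 ± 0.55 above heart. The exception was Tpm1, a tropomyosin shared with the heart, at 0.52 ± 0.10, adjusted p = 2.61e-06.

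Myosin heavy chain genes lie side by side and are close copies, and the counts may divide reads between them. Per kilobase of annotated exon, Myh4 made up 78.2 ± 5.03% of the 4 adult heavy chains in muscle, Myh1 12.4 ± 2.57%, Myh2 8.44 ± 2.49% and Myh7, the slow chain, 1.01 ± 0.614% (SD, n = 12). The share of Myh4 was between 71.0 and 86.0% in every library, so type IIb was the main heavy chain in all 12.

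Slow fibre genes were present in muscle but most were shared with or exceeded by the heart. All 10 were higher than the mean of the 5 organs, yet 5 were higher and 5 lower than in heart and only Tnnt1, Tnni1 and Mybpc1 were muscle-high. An even split against heart was also that of all genes tested, with 36.0% higher and 36.3% lower. Myh7 had 167, 396 and 965 CPM in muscle as lowest, median and highest level and 230.5, 294 and 545 CPM in heart, so the ranges overlapped, and the difference was 0.74 ± 0.33, adjusted p = 0.0391. Tnni1, the slow troponin I, was nearest to hypothalamus at 4.82 ± 0.31, and Mybpc1, a myosin-binding protein C of skeletal muscle, was 7.52 ± 0.45 above adrenal. The light chains Myl2 and Myl3, which ventricle and slow fibres share, were lower than in heart, with log2 differences of -4.12 ± 0.29 and -3.43 ± 0.32. Tnnc1, the troponin C of slow and cardiac muscle, differed from heart by -3.87 ± 0.36.

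Slow fibre genes also varied more between the muscle libraries than fast ones. The SD of log2 CPM over the 12 libraries was 0.45 (Mybpc1) to 0.88 (Tnnc1) for the 10 slow genes and 0.08 (Acta1) to 0.45 (Myh2) for the 13 fast genes, each on CPM plus 0.25. Myh7 ran from 167 CPM at time 18 to 965 CPM at 46, and Tnnt1 from 68.3 to 409.9 CPM, with 68.3 at 18 and 409.9 at 46. Acta1 in the same libraries stayed between 7709 and 9641 CPM. Across the 12 libraries, Pearson's r of Myh7 with Tnnt1 was 0.95 (Spearman's rho 0.96), with Tnni1 0.93 (0.92), with Tnnc1 0.95 (0.92) and with Tpm3, the slow tropomyosin, 0.97 (0.95). Permutation tests gave an adjusted p of 3.00e-05 for each r, with raw p of 1.00e-05, the smallest the 100000 permutations give, and adjusted p of 1.20e-04 to 2.40e-04 for rho, adjusted over the 12 relations computed. Without the libraries at 46 and 18, farthest from the median of Myh7, the 4 values of r ran from 0.89 to 0.96. With Myh7b and Myl3, r was 0.81 and 0.69 (permutation adjusted p = 0.00377 and 0.0283, and 0.0228 and 0.0545 for rho), falling to 0.65 and 0.54 without those libraries. With Myl2 and Myoz2, r was 0.60 and 0.47 and did not pass (permutation adjusted p = 0.0645 and 0.184). With Mybpc1, r was 0.21 (rho 0.27, permutation adjusted p = 0.524 and 0.531), and with Myh4 it was -0.31 (rho -0.02, permutation adjusted p = 0.4 and 0.956). Library and circadian time cannot be told apart here, since each time has 1 library, and the relation rests on CPM, which share the library total.

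**Figure D3:**
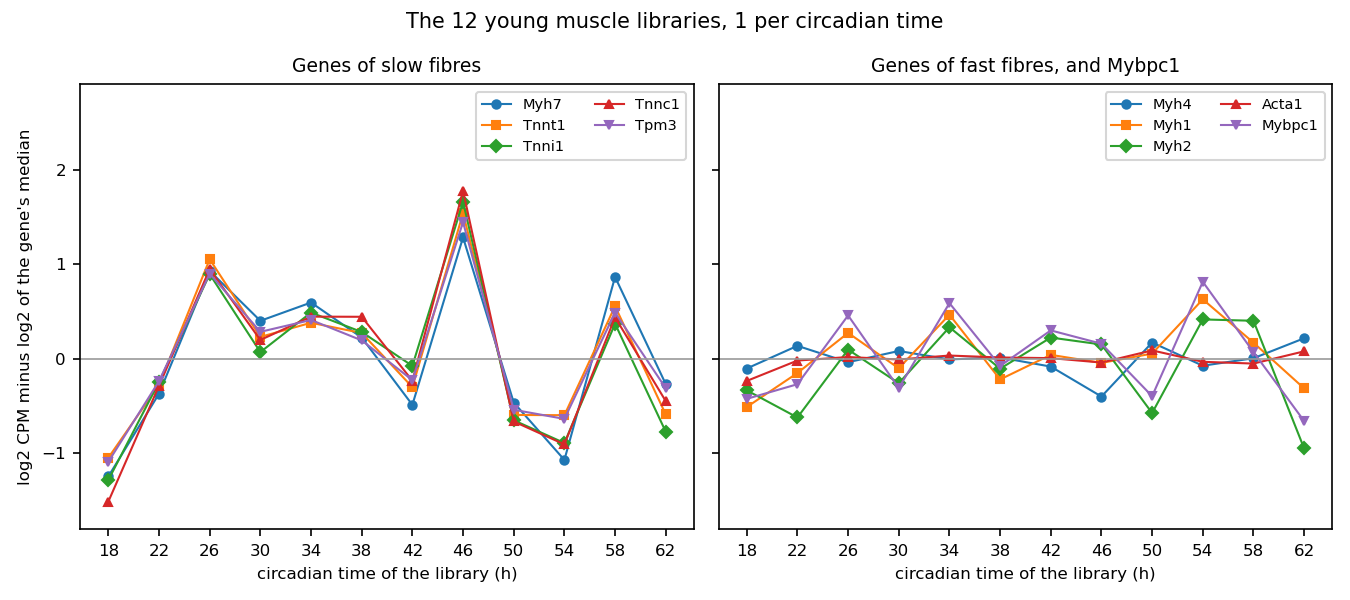
Log2 CPM of each gene minus the log2 of its own median, in the 12 young muscle libraries by circadian time in hours. The 5 slow fibre genes are highest together at 46 and lowest together at 18, where Myh7 has 965 and 167 CPM, and Acta1 and Myh4 stay nearer to 0 throughout.

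The cardiac list, which adds Nppa, Nppb and Sbk2 to contractile genes, separated the 2 striated tissues in the other direction. Of its 10 genes, 8 were lower in muscle than in heart and 2 higher. Mybpc3, the cardiac myosin-binding protein C, had 3843, 4545 and 5203 CPM in heart and at most 0.217 CPM in any muscle library, a log2 difference of -16.19 ± 0.68, adjusted p = 5.83e-30. The atrial and ventricular chain Myh6 differed from heart by -11.98 ± 0.53, troponin I3 (Tnni3) by -12.40 ± 0.48 and troponin T2 (Tnnt2) by -9.52 ± 0.45. Nppb, a natriuretic peptide, and the cardiac transcription factors Gata4 and Nkx2-5 each had 1 count over all 12 muscle libraries, against 84.3 to 483, 97.3 to 153 and 62.1 to 99.7 CPM in heart. Actc1, cardiac actin, still had 36.1 to 166 CPM in muscle and differed from heart by -5.85 ± 0.40. The 2 higher genes were Sbk2, at 5.08 ± 0.21 above heart and muscle-high, and Myl4, an atrial light chain, at 2.17 ± 0.28. In Myl4 the lung exceeded muscle, at -1.86 ± 0.25. The 4 largest rises against heart by the naming rule were Myh4, Myh2, Ampd1 and Tmem233. Tmem233 had 253 to 356 CPM in muscle and no count in the 12 heart libraries, at least 14390.5-fold higher by a floor of 3 counts over the group.

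The scaffold of the sarcomere was high in both striated tissues. All 26 scaffold and assembly genes were higher than the mean of the 5 organs, and 9 were muscle-high. Against heart 19 were higher, 3 lower and 4 not called, and for 22 the heart was the nearest organ. The list median of the smallest difference was 1.16. Neb, the ruler of the skeletal thin filament, had 3722, 5652 and 6596 CPM and was nearest to adrenal at 9.12 ± 0.53, with 9.98 ± 0.56 against heart. Ttn, the giant spring of the sarcomere, had 7968, 10563 and 12028 CPM in muscle and 2692, 3379.7 and 5276 CPM in heart, which did not overlap (1.803 ± 0.31, adjusted p = 8.88e-07). The calsarcins Myoz1 and Myoz3, Z-disc proteins that bind calcineurin, were among the genes furthest above all organs, at 9.61 ± 0.49 and 9.73 ± 0.34. Myot (myotilin) was 4.47 ± 0.32 above heart, and Ankrd2, a stretch-responsive ankyrin repeat protein, 7.53 ± 0.28 above hypothalamus. The 3 lower than heart were Csrp3 (-3.73 ± 0.39), Lmod2 (-1.37 ± 0.31) and Actn2 (-0.81 ± 0.34, adjusted p = 0.0279).

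Genes that couple the nerve impulse to calcium release followed, with 25 of 27 higher than the mean, 2 lower and 15 muscle-high. In 20 of the 27 the muscle libraries lay above all others. The list median of the smallest difference was 2.88. The voltage sensor Cacna1s had 1031, 1497 and 1698 CPM and was 5.84 ± 0.38 above heart, and its partner Cacng1 had 285, 328 and 378 CPM and was 9.96 ± 0.23 above lung. Ryr1, the calcium release channel of skeletal muscle, had 3049.7, 5035 and 6071 CPM and was nearest to adrenal at 8.75 ± 0.55. Stac3, which links the voltage sensor to that channel, was at 7.17 ± 0.16, Casq1 at 8.12 ± 0.46 and the fast calcium pump Atp2a1 at 8.83 ± 0.72. Pvalb, the calcium buffer parvalbumin, had 2611, 3235 and 3404 CPM and was 8.03 ± 0.54 above hypothalamus. Mylk2, the light chain kinase of skeletal muscle, was 9.99 ± 0.41 above lung. The skeletal chloride channel Clcn1 and sodium channel Scn4a were 4.56 ± 0.21 and 4.99 ± 0.31 above heart.

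The regulators of the calcium pump went different ways. Mrln (myoregulin), a micropeptide inhibitor of the pump in skeletal muscle, had 57.0, 67.7 and 85.1 CPM and was 6.14 ± 0.18 above heart. Pln (phospholamban) had 1.85 to 5.43 CPM in muscle against 4077 to 5360.1 CPM in heart, a difference of -10.30 ± 0.48, adjusted p = 6.80e-28. Pln and the slow pump Atp2a2 (-4.22 ± 0.16 relative to heart) were the 2 genes lower than the mean. Sln (sarcolipin) had only 1.59 to 3.56 CPM in muscle, above heart (4.74 ± 0.79) but below lung (-2.01 ± 0.49). Strit1 (DWORF) had 0.0542 to 1.24 CPM in muscle and 12.5 to 28.0 CPM in heart.

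At the junction with the nerve, 9 of 10 genes tested were higher than the mean and Lrp4 was lower, and 4 were muscle-high. The list median of the smallest difference was 1.29. The receptor subunits Chrna1, Chrnd and Chrne were 5.96 ± 0.23 above hypothalamus, 8.56 ± 0.40 above adrenal and 6.42 ± 0.23 above kidney. Chrne, the adult subunit, had 12.7, 19.3 and 24.1 CPM. Chrng, the subunit that Chrne replaces after birth, passed no filter on low counts and had 0 to 0.226 CPM. Musk, the kinase that assembles the junction, had 8.94, 23.2 and 34.2 CPM and was 5.88 ± 0.26 above hypothalamus. Lrp4, the receptor of agrin, had 12.9 to 22.5 CPM and was lowest relative to lung, at -2.13 ± 0.10. Ache, acetylcholinesterase, was 4.47 ± 0.18 above heart but -1.85 ± 0.14 relative to hypothalamus.

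Among the transcription factors and fusion genes of the muscle lineage, 20 of 21 passed the filter, 18 of them were higher than the mean, none was lower, and 13 were muscle-high. The list median of the smallest difference was 3.54. Myf6 and Myod1, 2 of the 4 myogenic basic helix-loop-helix factors, had 110.0, 137 and 158 CPM and 18.6, 40.2 and 70.2 CPM as lowest, median and highest level. Per kilobase of annotated exon the mean level was 108 CPM for Myf6, 21.8 for Myod1, 2.88 for Myog and 1.19 for Myf5. Myf6 was 9.79 ± 0.33 above adrenal and had no count in heart, at least 6297-fold lower there by a floor of 3 counts over the group. Myod1 was 9.46 ± 0.30 above adrenal, Myog 6.81 ± 0.30 and Myf5 6.33 ± 0.29 above hypothalamus. Myog, the factor of differentiating cells, had 2.43 to 6.89 CPM. Pax7, the marker of satellite cells, had 2.24 to 3.73 CPM and was muscle-high at 2.55 ± 0.30 above hypothalamus, although the highest library outside muscle had 2.32 CPM.

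Lbx1, a homeobox gene of limb muscle precursors, had 124, 135 and 152 CPM and was 9.89 ± 0.26 above adrenal, with no count in kidney. Tbx15, a T-box factor found in fast fibres, had 392, 428 and 526 CPM and was 8.06 ± 0.28 above hypothalamus. Eya4, Vgll2 and Pitx3 were also muscle-high, with smallest differences of 4.52 ± 0.13, 7.10 ± 0.35 and 3.27 ± 0.24. Mef2c was muscle-high at 3.82 ± 0.14 above heart, while Mef2a (0.44 ± 0.05) and Mef2d (0.94 ± 0.07) were higher than heart by less than 4-fold. The fusion genes Mymk and Mymx did not pass the test against the mean and each was at 0 in 7 of the 12 muscle libraries, with at most 0.110 and 0.226 CPM.

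**Figure D4:**
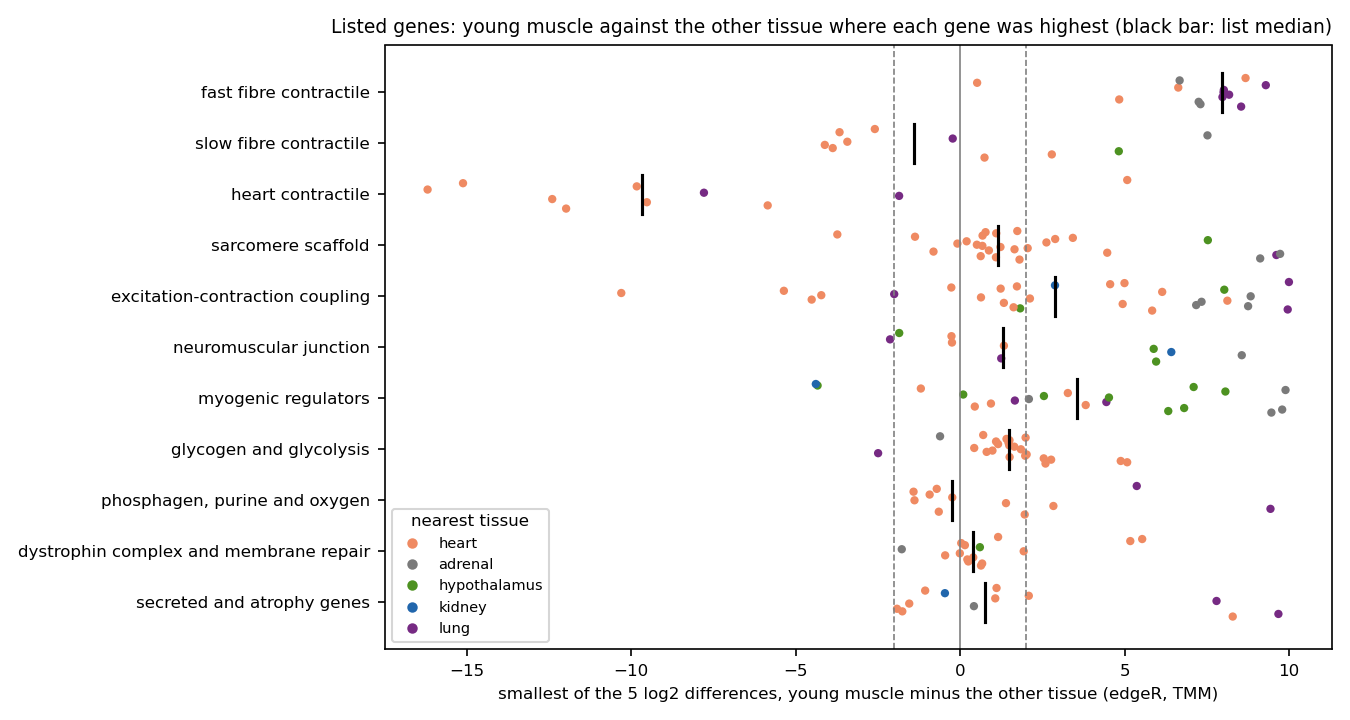
For each gene of 11 lists, the smallest of the 5 log2 differences (muscle minus the other organ), coloured by the organ that gave it, with a black bar at the list median, a line at 0 and dashed lines at -2 and 2. Fast fibre genes have a median of 7.97 and cardiac genes one of -9.68, and most scaffold and glycolytic points sit between 0 and 3 with heart as the nearest organ.

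Genes of glycogen use and glycolysis were higher in muscle nearly throughout. Of 23, 22 were higher than the mean and 22 higher than heart, 6 were muscle-high, and in 19 the muscle libraries lay above all 60 others. The list median of the smallest difference was 1.499. Pygm, the glycogen phosphorylase of muscle, had 5627, 6351 and 7371 CPM and was 2.59 ± 0.12 above heart. The phosphorylase kinase subunits Phka1 and Phkg1 were 5.08 ± 0.08 and 4.88 ± 0.18 above heart, and glycogen synthase Gys1 was 2.54 ± 0.08 above it. The glycolytic enzymes Aldoa, Gapdh, Eno3 and Pkm and the lactate dehydrogenase Ldha had smaller differences than these glycogen genes. Aldoa was 1.64 ± 0.07, Gapdh 1.15 ± 0.05, Eno3 1.499 ± 0.14, Pkm 1.41 ± 0.06 and Ldha 1.99 ± 0.09 above heart. The symbol Pgm2 was the only lower gene, with 2.06 to 4.13 CPM in muscle and -2.49 ± 0.07 relative to lung. Pgm1, a phosphoglucomutase chosen after its values were seen, had 1535 to 2096 CPM and was 2.83 ± 0.10 above heart.

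Energy buffering and oxygen genes went both ways against heart. All 11 were higher than the mean of the 5 organs, 3 were muscle-high, and against heart 5 were higher and 5 lower. Over all genes tested 36.0% were higher and 36.3% lower than in heart, so an even split does not mark this list. Ckm, muscle creatine kinase, had 7434, 8742 and 9394 CPM and was 1.96 ± 0.38, adjusted p = 7.02e-06 above heart. Ampd1, the AMP deaminase of muscle, had 1194, 1392 and 1607 CPM and was 9.43 ± 0.45 above lung. Adssl1, the adenylosuccinate synthase of the same purine cycle, was 2.83 ± 0.08 above heart, and Slc16a3, the lactate exporter MCT4, 5.37 ± 0.22 above lung. Myoglobin (Mb) had 1359 to 2742 CPM in muscle and 5062 to 7559.8 CPM in heart (-1.39 ± 0.37, adjusted p = 7.11e-04). The striated muscle subunits of cytochrome oxidase Cox6a2, Cox7a1 and Cox8b were lower than in heart, with differences of -0.93 ± 0.25, -1.42 ± 0.15 and -0.71 ± 0.16. The mitochondrial genome gave 4.25 ± 0.362% of counts in muscle and 8.17 ± 0.608% in heart (SD, n = 12), and mt-Co1 and mt-Nd5, which are among the 8 genes with the highest mean CPM in muscle, were -0.62 ± 0.06 and -0.44 ± 0.08 relative to heart. The other 6 of the 8 were Myh4, Atp2a1, Ttn, Acta1, Ckm and Aldoa.

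Pairs of genes for the same task were then compared within each library. For 24 pairs the log2 ratio of the muscle member to its counterpart was taken, each as CPM plus 0.25. In 19 pairs all 12 muscle ratios lay above all 60 others, and in 21 they lay above all 12 of heart. In calcium handling, Ryr1 to Ryr2 had a mean of 13.13 in muscle (range 12.30 to 13.63) and -10.26 in heart, Atp2a1 to Atp2a2 5.47 and -13.04, and Casq1 to Casq2 6.07 and -6.59. In metabolism the heart mostly leaned the same way by less. Pygm to Pygb was 9.41 in muscle and 0.36 in heart, Ckm to Ckb 9.97 and 5.24, and Pfkm to Pfkl 8.43 and 3.11. The 3 pairs whose muscle and heart ratios overlapped were Cox7a1 to Cox7a2 (-0.13 and 0.09), Gys1 to Gys2 (9.68 and 8.62) and Fbp2 to Fbp1 (7.69 and 7.08). The 24 counterparts had mean levels in muscle from 0.0253 CPM (Fbp1) to 371 CPM (Atp2a2). Where a gene of the pair lies near or below 0.25 CPM, the size of the ratio depends on the value added. Ryr2 had 0.0516 to 0.656 CPM, Pygb 7.41 to 12.03 CPM and Pgam1 9.04 to 14.4 CPM, while Eno1 had 103 to 125 CPM and Cox7a2 111 to 163 CPM.

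**Figure D5:**
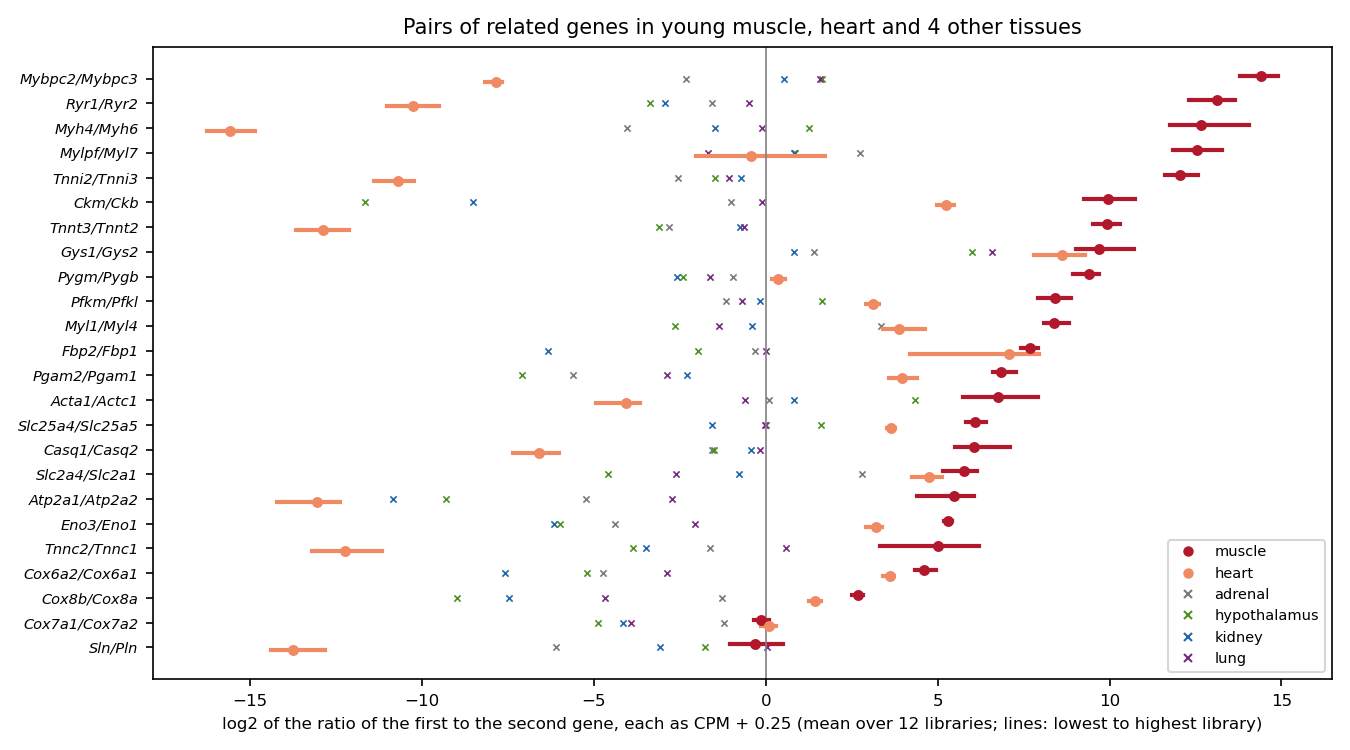
Log2 ratio of the first to the second gene of 24 pairs, each as CPM plus 0.25: points are means over 12 libraries, lines run from the lowest to the highest library of muscle and heart, and crosses are the means of the other 4 organs. Muscle points reach 14.41 for Mybpc2/Mybpc3, where heart is at -7.84, and coincide with heart only near the pairs of Cox7a, Gys and Fbp. Ratios with a gene near 0, as Mybpc3 is in muscle, depend on the added 0.25.

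Genes of the dystrophin complex and of membrane repair were mostly high in both striated tissues. Of 15, 14 were higher than the mean and Sntb1 was not called, and 2 were muscle-high. Capn3, the calpain of limb girdle dystrophy, had 186, 219 and 229 CPM and was 5.17 ± 0.15 above heart, and Ano5, a membrane repair protein, was 5.53 ± 0.19 above heart. Dmd itself was 0.63 ± 0.08 relative to heart and the sarcoglycan Sgca 0.67 ± 0.17. Cav3, the caveolin of muscle, had 58.7 to 78.5 CPM in muscle and 58.04 to 101 CPM in heart and did not pass the test (0.03 ± 0.16, adjusted p = 0.894).

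Of 12 genes for secreted factors and atrophy that the table holds, 9 were higher than the mean, 2 lower (Foxo3 and Metrnl) and 4 muscle-high. Mstn (myostatin), the secreted brake on muscle growth, had 97.6, 141 and 207 CPM and was 8.29 ± 0.30 above heart. Ostn (musclin), a secreted peptide, had 42.5, 64.9 and 101 CPM and was 9.67 ± 0.24 above lung. The atrophy ligases Fbxo32 and Trim63 were 2.09 ± 0.10 and 1.07 ± 0.19 above heart. Fndc5, the precursor of irisin, was higher than the mean (3.19 ± 0.14) but lower than heart (-1.76 ± 0.21).

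The genes furthest above all 5 organs were then named by rule: the 12 muscle-high genes with the largest smallest difference, at least 10 CPM in muscle and no overlap with other libraries. They were Myhas, 2310065F04Rik, Mettl21c, Mylk2, Cacng1, Lbx1, Myf6, Tmem233, Myoz3, Ostn, Nctc1 and Myoz1, with smallest differences from 10.38 ± 0.24 down to 9.61 ± 0.49. The heart was the nearest organ for none of them, and adrenal or lung was for all. The first 2 are transcripts without a protein on chromosome 11 of GRCm38, beside the fast myosin heavy chain genes. Myhas (annotated antisense, ENSMUSG00000085348.1, chromosome 11, 67211256 to 67237573, minus strand) had 70.6, 101 and 125 CPM, and 2310065F04Rik (annotated lincRNA, ENSMUSG00000087410.7, chromosome 11, 67112461 to 67120080, minus strand) had 187, 229 and 259.8 CPM. Both had no count in heart and kidney. On the plus strand of the same region lie Myh2 (chromosome 11, 67171027 to 67197517, plus strand) and Myh4 (chromosome 11, 67238029 to 67260446, plus strand). By these positions neither Myh2 nor Myh4 overlaps Myhas. Without the use of strand given, reads of Myhas and of any gene that does overlap it cannot be told apart. Mettl21c, a protein lysine methyltransferase, had 133, 155 and 186 CPM, and Nctc1, a transcript without a protein from the Igf2 and H19 region of chromosome 7, had 156, 182 and 210.1 CPM.

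Genes low in muscle were named by the mirror rule. Of the 307 muscle-low genes 34 had at least 10 CPM in each other organ. On CPM, without the TMM factors, 144 had all 12 muscle libraries below all 60 others (9.59% of all genes tested had that pattern). The 8 named were Arhgef19, Plxnb1, Meis2, Klhdc8a, Cryzl2, Cxadr, Dock5 and Mgat5. Arhgef19, a guanine nucleotide exchange factor, had 0.217, 0.368 and 0.662 CPM in muscle and means of 21.8 CPM in lung to 74.1 in adrenal, and the difference closest to 0 was -4.89 ± 0.23 (lung, adjusted p = 7.11e-28). Plxnb1, a semaphorin receptor, had 1.34, 2.15 and 5.16 CPM in muscle and at least 65.4 CPM as mean elsewhere, and was -4.30 ± 0.18 relative to kidney. Meis2, a homeobox factor, had 0.458 to 1.67 CPM in muscle and was -4.24 ± 0.21 relative to lung. Cxadr, the receptor of coxsackievirus and adenovirus and a junction protein, had 0.458 to 1.76 CPM in muscle and 39.0 to 59.3 CPM in heart. For Klhdc8a, Cryzl2, Dock5 and Mgat5, which puts branches on N-glycans, the difference closest to 0 ran from -4.11 to -2.95.

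The muscle libraries were also compared with each other. The 6 genes with the largest spread of log2 CPM among those of at least 10 CPM were Prg4, Cyp2e1, Cish, Cfd, Dbp and Per2. Prg4, the lubricin of joint surfaces, had 181 CPM at time 50 and 3.601 to 11.1 CPM in the other 11 libraries. Cfd (adipsin, secreted by fat cells) was highest at 54 and 38, with 99.6 and 89.9 CPM, and lowest at 58 with 9.92. Adipoq, the adiponectin of fat cells, had 23.9 and 22.8 CPM in the same 2 libraries and 1.73 at 58. Cyp2e1, an oxidase of liver and fat, had 29.1 CPM at 38, 26.5 at 54 and 4.33 at 58. Cish, a feedback inhibitor of cytokine signalling, ran from 5.01 CPM at 26 to 60.6 at 46. The clock output Dbp peaked at 34 and 58 with 279 and 257 CPM and was lowest at 22 with 35.4, so its 2 peaks lay 24 h apart. Per2, a core clock gene, was lowest at 50 and 26, with 3.88 and 4.91 CPM, and highest at 58 with 36.7.

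Markers of cell types other than fibres gave the following. Over all genes tested, 36.0% were higher and 46% lower in muscle than the mean of the 5 organs. With library totals as scaling, 4380 of the 20682 genes were higher and 13038 lower. The lists are small, and their counts were not tested against these shares. Summed adipocyte markers ran from 15.9 to 182 CPM in muscle and 3040.0 to 9583 CPM in adrenal, and 5 of 6 were higher in muscle than the mean (4 with library totals), while Ucp1 of brown fat had no count in any muscle library. All 5 tendon genes were higher, and Thbs4 (3.73 ± 0.17 above heart) and Tnmd (2.64 ± 0.26 above hypothalamus) were muscle-high. Of the Schwann cell genes 4 of 5 were higher (2 with library totals as scaling). Their sum had a median of 145 CPM in muscle, 3397 in hypothalamus, 898 in lung, 237 in adrenal, 82.1 in heart and 37.0 in kidney. Of 5 fibroblast genes 4 were higher (3 with library totals), and of 4 smooth muscle genes 3 were higher (1 with library totals). Against heart, 2 fibroblast genes were lower and 3 not called, and 3 smooth muscle genes were higher and 1 not called. The fibroblast sum had a median of 725 CPM in muscle, 1251 in adrenal, 1154 in heart and 863 in lung, and the smooth muscle sum had 120.3, 199.8, 134 and 329.6 CPM. Of 5 endothelial genes 1 was higher, 2 lower and 2 not called (all 5 lower with library totals), with a sum of 196 to 366 CPM in muscle and 1717 to 2545 CPM in lung. The median of that sum was 293 CPM in muscle, 49.2 in hypothalamus, 347 in kidney, 839 in adrenal and 892 in heart. All 5 leukocyte and all 5 red cell genes were lower than the mean, with sums of 48.0 to 145 CPM and 127 to 334 CPM in muscle. Muscle was not the lowest organ in either sum. The leukocyte sum had a median of 73.5 CPM in muscle, 31.7 in hypothalamus, 43.6 in kidney, 218 in heart, 475 in adrenal and 3499 in lung. For red cells the medians were 158 CPM in muscle, 155 in kidney, 409 in hypothalamus, 497 in adrenal, 1264 in heart and 1726 in lung. Kidney, adrenal and hypothalamus markers summed to at most 0.540, 1.52 and 0.659 CPM in muscle. Of 8 ribosomal and elongation genes 6 were higher and 2 lower, but 3 were higher and 5 lower with library totals as scaling, so no direction is given for them.

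The same rule was applied to libraries the young comparison did not use, the 72 of 18 months and the 72 of 27 months. At 18 months 430 genes were muscle-high (2.07% of 20760 tested), and 372 were shared with the young set, 88.2% of the 422 and 86.5% of the 430. At 27 months 395 were muscle-high (2.03% of 19441), and 308 were shared, 73.0% of the 422 and 78.0% of the 395. Of the young set 413 genes were tested at 18 months and 377 at 27 months, and in each of these the 5 differences were all above 0. Muscle libraries at 27 months had a median total of 8616520 against 18865398 at 6 months, and the part of depth in the smaller share was not tested. Of the 307 muscle-low genes 216 (70.4%) met the rule at 18 months and 197 (64.2%) at 27 months, out of 402 (1.94%) and 521 (2.68%).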

How the data were processed

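Poly(A) RNA of 216 libraries was sequenced, and the 72 young ones (12 of muscle) were used for the main comparisons. The authors deposited 1 table of counts and 1 of CPM with 55376 gene lines, and HISAT2, HTSeq and GRCm38 (mm10) are named per the submitters' processing notes. The sources used here do not give strand use, the annotation release or versions. The deposited CPM equal the deposited counts over library totals to within 4.98e-06. The members and lists were chosen with earlier results of these data known.

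Counts were fitted in edgeR 4.0.16 (R 4.3.3, limma 3.58.1) with TMM, filterByExpr by tissue (minimum count 10) and quasi-likelihood tests. The model held tissue means and, per tissue, a cosine and sine of 24 h. Contrasts were muscle against each organ and against their unweighted mean, and p-values were adjusted by Benjamini-Hochberg over 20682 genes (threshold 0.05, two-sided). The standard error is the log2 difference over the square root of F. Spread and ratios used log2 of CPM plus 0.25. The script was tested on simulated counts. No 2 libraries agreed within sampling noise, with a chi-square of at least 5.58 per degree of freedom between muscle libraries. The depth of 15239373 to 27623643 counts in muscle means that 1 count is under 0.1 CPM. Correlations used 100000 permutations. Symbols were matched to GENCODE for positions and exon lengths, 54373 with 1 match, and promoters came from RefSeq.

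Beside 24 gene lists and 24 isoform pairs, genes were named by rule: the 12 muscle-high genes with the largest smallest difference (at least 10 CPM in muscle, no overlap), the 8 muscle-low genes furthest down (at least 10 CPM in each other organ), the 8 with the highest mean CPM in muscle, the 4 largest rises and 4 largest falls against heart, and the 6 with the largest SD among muscle libraries. Alternatives were median-of-ratios factors, library totals, no filter, DESeq2 1.42.0, tissue means only, a minimum change of 1.5-fold, circadian time as block, an adjusted p of 0.01, pairwise fits, other fold rules and left-out libraries. Python 3.11.15 with pandas 2.3.3, numpy 2.4.6, scipy 1.17.1 and matplotlib 3.10.9 was used.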

Additional observations from a re-analysis of the deposited data

How the results depend on the processing

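Of 312 alternative values of 16 counts of genes, 299 stayed within 1.5 times the reported count. With library totals alone, 4380 genes were higher than the mean of the 5 organs, 3944 higher than adrenal, 5207 than hypothalamus and 4344 than lung, and 563 were muscle-low. A minimum change of 1.5-fold left 4903 genes higher than the mean, and 4367 higher and 4675 lower than heart. Fits of only the 24 libraries of muscle and 1 organ gave 103 muscle-low genes, all among the 307, out of 13991 genes that could be tested in all 5 fits. A rule of at least 1 on the log2 scale gave 1094 muscle-high and 1106 muscle-low genes, and a rule of at least 3 gave 232 and 89. Leaving out each muscle library in turn gave 411 to 423 muscle-high and 316 to 339 muscle-low genes, 7281 to 7335 higher than the mean and 9593 to 9659 lower. DESeq2 gave 419 muscle-high genes, of which 418 were shared, and 321 muscle-low, of which 259 were shared. With circadian time as a replicate block the counts were 422 and 292, and no count of calls moved by over 1.5 times. Muscle libraries and those of another organ at the same time deviated from their group means with correlations of -0.13 to 0.48, with medians of 0.06 to 0.27 against -0.03 to -0.01 between different times. As 4 to 9 of the 12 times passed 0.1, not all of them, the time was not taken as a pairing of libraries, although libraries of 1 time share it. That was a choice and no test of dependence. In heart 9 of 12 passed, with a median of 0.27 against -0.03 between different times. Each library correlated best with its own time in 3 to 6 of 12 cases. Of 6804 alternative values of the named genes, 6718 kept direction and call, 39 lost the call, 29 gained it and 16 had no call and changed sign. The 2 called values that reversed, both with library totals, were the difference of Cish from the mean (-0.044) and of Dbp from its nearest organ (-0.046). The cause of these changes was not tested. Depth limits genes near 0 in a group, whose log2 differences depend on the prior count.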

Other observations

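Homeobox genes of the Hox clusters, which pattern the body axis and the limb, were chosen after their values were seen and are given as values. Hoxc10 had 77.4 to 97.4 CPM in muscle and was 3.04 ± 0.19 (log2) above kidney, the nearest organ, and Hoxc11 had 12.9 to 21.7 CPM and was 4.51 ± 0.19 above kidney. Hoxa13, the gene of the distal limb, had 3.66 to 15.8 CPM in muscle and at most 0.0953 CPM in any other young library, a difference of 8.92 ± 0.37 from lung. Hoxa11 had 4.77 to 13.3 CPM and was 2.13 ± 0.19 above kidney. All 4 were muscle-high. Hoxa9, Hoxa10, Hoxd8, Hoxd9 and Hoxd10 had mean levels of 6.52 to 88.1 CPM in muscle and 11.2 to 112 CPM in kidney, and none was muscle-high. The 8 genes from Hoxb2 to Hoxb9 had means of 0.445 to 1.66 CPM in muscle, 17.3 to 139.6 CPM in adrenal and 9.43 to 33.7 CPM in kidney. Tbx4, the T-box gene of the hindlimb and lung, had 3.36 to 5.43 CPM in muscle and a mean of 71.3 CPM in lung. Tbx5, its counterpart in the forelimb and heart, had 0.0565 to 0.377 CPM in muscle and a mean of 29.4 CPM in heart.

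Chac1, an enzyme that breaks down glutathione, was also chosen after its values were seen. It was muscle-high at 3.20 ± 0.19 above hypothalamus and ranged from 11.8 to 170.5 CPM between muscle libraries.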
